A study of Schizosaccharomyces pombe with 4 samples.

Results

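The thiamine-repressed genes of fission yeast form a small group, of which 5 identifiers were listed for description here among the 12684 annotated features counted: SPCC1223.02 (*nmt1*), SPBC26H8.01 (*thi2*), SPAC23H4.10c (*thi4*), SPAC9.10 (*thi9*) and SPBP4G3.03. The members were taken by identifier, from a list chosen with earlier results of these data known. The last identifier had been listed as *pho4*, but the RefSeq annotation names SPBP4G3.03 *fub2*, a PI31 proteasome regulator family protein, and gives *pho4* the identifier SPBC428.03c. Both are therefore described under their annotated names, *fub2* as the listed identifier and *pho4* as the gene of that name. The 4 RNA-seq libraries came from vegetative haploid *h-* cells of *S. pombe* with the genotype *leu1-32 pat1-L95G::kanR*, which all groups share. *pat1-L95G* encodes an analog-sensitive form of the Pat1 kinase that holds cells out of meiosis. Cells were grown at 30 °C for 2 days in EMM, a defined minimal medium, and harvested at an optical density of 0.8 to 1.0. According to the methods, EMM was a broth lacking leucine and uracil to which both were added back, and thiamine is not named among the supplements. Total RNA depleted of ribosomal RNA was sequenced from 2 biological replicates, and poly(A)+ RNA, captured on oligo(dT), also from 2. No culture with added thiamine is among these samples, so that repression itself was not measured. Kit, read length and instrument differed between the fractions, so that they and the fraction cannot be told apart.

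Thiamine, or vitamin B1, is made in fission yeast by joining a pyrimidine and a thiazole, and its diphosphate is the cofactor of pyruvate decarboxylase, transketolase and related enzymes. When thiamine is present in the medium, transcription of the biosynthetic genes is switched off. *nmt1*, whose name stands for no message in thiamine, gave the regulated promoter of the pREP expression vectors. Nmt1 makes the pyrimidine precursor, Thi2 (also called Nmt2) makes the thiazole, Thi4 joins them into thiamine phosphate, Thi9 is a plasma membrane transporter that takes up thiamine together with protons, and Pho4 is an acid phosphatase whose gene is repressed by thiamine.

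The sequences just upstream of the annotated starts are shown because these genes share a known promoter response, and because a TATAAA hexamer stands at nearly the same place in most of them. Each line gives the 120 nucleotides that end immediately before the start, 5′ to 3′ on the strand of the gene, from the reference assembly ASM294v3, with TATAAA in capitals. The intervals are III:1838295-1838414 (+) for *nmt1*, II:3940406-3940525 (+) for *thi2*, I:1589813-1589932 (+) for *thi4*, I:1482299-1482418 (+) for *thi9* and II:447029-447148 (-) for *pho4*.
nmt1: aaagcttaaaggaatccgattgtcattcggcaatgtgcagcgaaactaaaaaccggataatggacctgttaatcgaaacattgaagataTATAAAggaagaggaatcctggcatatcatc
thi2: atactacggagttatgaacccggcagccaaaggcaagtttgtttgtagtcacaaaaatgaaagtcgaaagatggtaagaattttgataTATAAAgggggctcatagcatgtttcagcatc
thi4: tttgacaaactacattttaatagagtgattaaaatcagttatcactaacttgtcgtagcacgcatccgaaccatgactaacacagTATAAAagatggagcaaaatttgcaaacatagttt
thi9: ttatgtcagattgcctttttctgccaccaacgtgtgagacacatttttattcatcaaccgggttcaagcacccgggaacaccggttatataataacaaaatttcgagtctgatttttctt
pho4: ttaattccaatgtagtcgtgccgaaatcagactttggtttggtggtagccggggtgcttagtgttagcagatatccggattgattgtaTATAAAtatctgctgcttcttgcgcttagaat
The first base of the hexamer lay 31 nucleotides upstream of the start in *nmt1*, 32 in *thi2* and *pho4*, and 35 in *thi4*. In *thi9* it occurred only at 215, outside the stretch shown. *fub2* had it at 68. *thi2* and *thi4* carried a further copy on the strand of the gene, at 198 and 196. Each overlapped a match on the other strand, whose first base as read on the strand of the gene lay at 202 and 198. As a background, 27.7% of the 5107 windows of 250 nucleotides upstream of protein-coding genes held TATAAA on the strand of the gene and 44.5% on either strand. A first base between 31 and 35 nucleotides upstream, a range chosen after the positions had been seen, was found in 160 of these windows (3.13%). A match to these letters is a description of the sequence and no measurement of binding.

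The libraries held 25530272 to 30650533 counts. RPKM stands here for reads per kilobase of the gene, scaled to library size with edgeR's TMM factors, and ranks are by RPKM within a library among 5113 nuclear protein-coding genes, with 1 as the highest. Of the mating type markers, the M-factor genes *mfm1*, *mfm2* and *mfm3* had 2666 to 40312 counts per library and *map2* of P cells 6 to 13, as the *h-* label states. In bulk RNA, fewer cells with a transcript and less of it per cell cannot be told apart.

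*nmt1* and *thi2*, the genes for the precursors of the pyrimidine and thiazole moieties, were among the 5 highest protein-coding genes by RPKM in all 4 libraries. On counts without division by length, *thi2* ranked 9 in total RNA (mean of 2 libraries). *nmt1* (III:1838415-1839664, + strand, 1250 nucleotides) received 415628 and 355474 counts from total RNA libraries and 208335 and 315338 from poly(A)+ libraries, or 14009.6 and 12726 RPKM against 5315 and 6077 RPKM. With the TMM factors used, its RPKM was thus lower in both poly(A)+ libraries than in either total RNA library. With these factors, 72.4% of the coding genes tested were called lower in poly(A)+ RNA. Its shares of counts on protein-coding genes overlapped, with 1.579% and 1.416% in total RNA, then 1.178% and 1.499% in poly(A)+ RNA. *nmt1* ranked 2 in both total RNA libraries, behind *tdh1*, a glyceraldehyde-3-phosphate dehydrogenase of glycolysis, and 2 and 1 in poly(A)+ RNA. *nmt1* alone took 1.36% of all counts in total RNA replicate 1 (95% Wilson interval 1.352 to 1.360, which covers counting error only), 1.22% in replicate 2, and 0.816% and 1.04% in the poly(A)+ libraries. All counts include those on opposite-strand features, described below, and how far these moved the shares between the fractions was not tested. The level of *nmt1* was 430 and 378 times the median coding RPKM in total RNA, then 322 and 364 times in poly(A)+ RNA.

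*thi2* (II:3940526-3941699, + strand, 1174 nucleotides) received 204697 and 188817 counts from total RNA libraries and 232475 and 273614 from poly(A)+ libraries. These were 7346 and 7197 RPKM against 6315 and 5615 RPKM. Both poly(A)+ libraries were under both total RNA libraries with these TMM factors, an order that turns with library totals alone or TMM factors from coding genes. It ranked 4 and 5 in total RNA, next to *eno101* and *gpm1* of glycolysis, and 1 and 2 in poly(A)+ RNA. Relative to the median coding gene, its level was 225 and 214 times in total RNA, then 382 and 336 times in poly(A)+ RNA.

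The other 3 genes with a thiamine function lay far under this pair but above the 90th percentile of coding genes, which was 222 RPKM in both total RNA libraries and 118 and 108 RPKM in poly(A)+ RNA. *pho4* (II:445324-447028, - strand, 1705 nucleotides), the phosphatase gene, received 34991 and 31393 counts from total RNA libraries and 14502 and 25775 from poly(A)+ libraries, or 865 and 824 RPKM against 271 and 364 RPKM. The poly(A)+ libraries were both lower, and the replicates of that fraction stood further apart than those of total RNA. *thi9* (I:1482419-1484752, + strand, 2334 nucleotides), the transporter gene, received 28543 and 26820 counts against 14009 and 20960, or 515 and 514 RPKM in total RNA, then 191 and 216 RPKM in poly(A)+ RNA. *thi4* (I:1589933-1593248, + strand, 3316 nucleotides), which encodes the enzyme that joins the moieties, received 20121 and 20976 counts from total RNA libraries and 12899 and 18082 from poly(A)+ libraries, or 256 and 283 RPKM against 124 and 131 RPKM. In both genes the RPKM values of the fractions did not overlap with the TMM factors used. With these factors, 72.4% of the coding genes tested were called lower in poly(A)+ RNA. As shares of counts on protein-coding genes, *thi9* took 0.108% and 0.107%, then 0.0792% and 0.0997%, which did not overlap either. Those of *thi4* did overlap, with 0.0765% and 0.0835% in total RNA, then 0.0729% and 0.0860% in poly(A)+ RNA. *pho4* ranked 184 and 195 in total RNA, then 278 and 212 in poly(A)+ RNA, *thi9* 274 and 279, then 362 and 294, and *thi4* 458 and 429, then 493 and 433.

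*fub2* stood apart from all of them. SPBP4G3.03 (II:4453078-4454161, + strand, 1084 nucleotides) received 2 and 6 counts from total RNA libraries and 6 and 18 from poly(A)+ libraries, which are 0.0777 and 0.248 RPKM against 0.177 and 0.400 RPKM. The fractions overlapped, and it ranked between 4997 and 5055. It starts 4024 nucleotides beyond the end of *pho1*, an extracellular acid phosphatase gene whose identifier, SPBP4G3.02, precedes it, and ends 85643 nucleotides from the end of chromosome II in the reference.

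**Figure D1:**
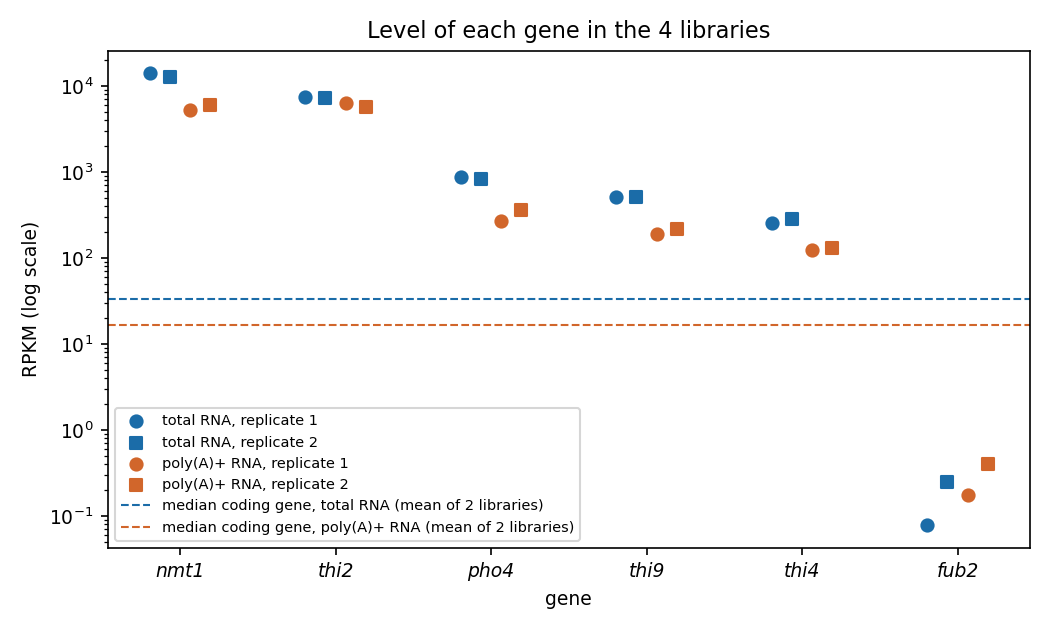
RPKM on a log scale for each gene in the 4 libraries, with total RNA in blue and poly(A)+ RNA in orange, and dashed lines at the median coding gene of each fraction (mean of 2 libraries). *nmt1* and *thi2* lie between 5315 and 14009.6 RPKM, *pho4*, *thi9* and *thi4* between 124 and 865 RPKM, and *fub2* below 1 RPKM.

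The order by RPKM in total RNA was *nmt1* (13368 ± 907, SD, n = 2), *thi2* (7272 ± 105), *pho4* (844 ± 28.8), *thi9* (515 ± 0.727), *thi4* (269 ± 19.4) and *fub2*, and no neighbours in it overlapped. In poly(A)+ RNA it was *thi2* (5965 ± 495, SD, n = 2), *nmt1* (5696 ± 539), *pho4* (318 ± 65.7), *thi9* (204 ± 17.6), *thi4* (128 ± 5.18) and *fub2*. Of the neighbours there, only *nmt1* and *thi2* overlapped, with *thi2* higher in replicate 1 and *nmt1* in replicate 2, so that their order was within the spread between replicates. Together, *nmt1*, *thi2*, *thi4* and *thi9* took 2.54% and 2.36% of the counts on protein-coding genes in total RNA, against 2.64% and 2.99% in poly(A)+ RNA. Of all counts, they took 2.18% and 2.04% in total RNA, against 1.83% and 2.07% in poly(A)+ RNA, so that the fractions overlapped with that denominator. It includes counts on opposite-strand features, whose effect on these shares was not tested.

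**Figure D2:**
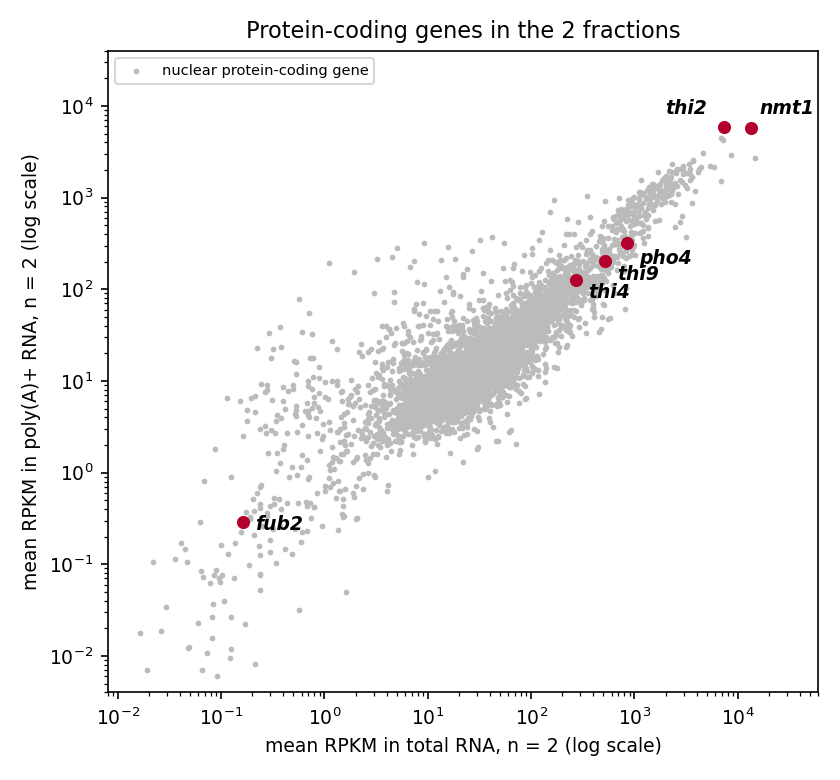
Mean RPKM in total RNA (x axis) against mean RPKM in poly(A)+ RNA (y axis), both on log scales with n = 2, for nuclear protein-coding genes with counts in both fractions (grey) and the genes described (red). *thi2* and *nmt1* lie at the upper end of the cloud, *pho4*, *thi9* and *thi4* within its upper part, and *fub2* among the genes with the fewest counts.

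Poly(A)+ and total RNA were set against each other by edgeR's quasi-likelihood test over 11234 features left by its filter on low counts, with Benjamini-Hochberg adjustment over all of them. A positive log2 fold change stands for more signal in poly(A)+ RNA. Of the 5 listed identifiers, 4 were lower in poly(A)+ RNA, none was higher and *fub2* did not pass the filter. *pho4* was lower too. Among all features tested, 35.5% were lower and 49.7% higher, and among the 5008 protein-coding genes tested 72.4% were lower and 7.89% higher with TMM factors from all features. These coding shares turned with the scaling, to 84.7% lower and 5.15% higher with DESeq2 size factors, to 33.5% lower and 18.2% higher with library totals alone and to 24.4% lower and 26.5% higher with TMM factors from coding genes. All features had a median log2 fold change of 0.84 and coding genes one of -0.93. Values relative to the latter are given for *nmt1*, *thi2*, *thi4*, *thi9*, *pho4* and some other genes. The features tested include opposite-strand partners of genes, whose poly(A)+ reads cannot be told apart from those of the gene, as described below. Only 516 of the 5113 coding genes lack an opposite-strand overlap. How far such reads moved the TMM factors, the shares of counts, the shares called and both medians was not tested.

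For *nmt1* the log2 fold change was -1.23 (standard error 0.11, edgeR quasi-likelihood test with adjusted p = 8.3e-05), which is -0.30 relative to the median coding gene. *thi9* had -1.34 (standard error 0.11, adjusted p = 6.4e-05, same edgeR test), or -0.40 relative to that median, and *pho4* -1.41 (standard error 0.16, adjusted p = 0.00026, same edgeR test), or -0.48. *thi4* had -1.08 (standard error 0.11, adjusted p = 0.00016, same edgeR test), or -0.15. These 4 genes lay under the median coding gene, above 24.6% (*pho4*), 27.7% (*thi9*), 32.8% (*nmt1*) and 41.5% (*thi4*) of their log2 fold changes.

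*thi2*, the thiazole gene, lay on the other side of the coding median. It stood at -0.29 on the log2 scale (standard error 0.09, adjusted p = 0.0278, edgeR's quasi-likelihood test), which is 0.65 above the median coding gene and above 79.7% of the coding log2 fold changes. The direction depended on the scaling: *thi2* was lower with TMM factors from all features and with DESeq2 size factors (-0.79), but higher with library totals alone (0.46, adjusted p = 0.000214, edgeR) and with TMM factors from coding genes (0.69, adjusted p = 0.00112, edgeR). Its call was also lost without either total RNA library, at -0.27 (adjusted p = 0.217, edgeR) without replicate 1 and -0.30 (adjusted p = 0.18, edgeR) without replicate 2, and with a filter at a mean of 50 counts (-0.24, adjusted p = 0.065, edgeR). With TMM factors from coding genes, *thi9* (-0.36, adjusted p = 0.0235, edgeR) and *pho4* (-0.44, adjusted p = 0.049, edgeR) were lower, while *nmt1* (-0.26, adjusted p = 0.0789, edgeR) and *thi4* (-0.10, adjusted p = 0.412, edgeR) did not pass the threshold. A scaling shifts all genes of a library alike, so that values relative to the median coding gene hardly move by construction. They ran from 0.64 to 0.65 for *thi2*, -0.30 for *nmt1* and -0.48 to -0.47 for *pho4*.

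**Figure D3:**
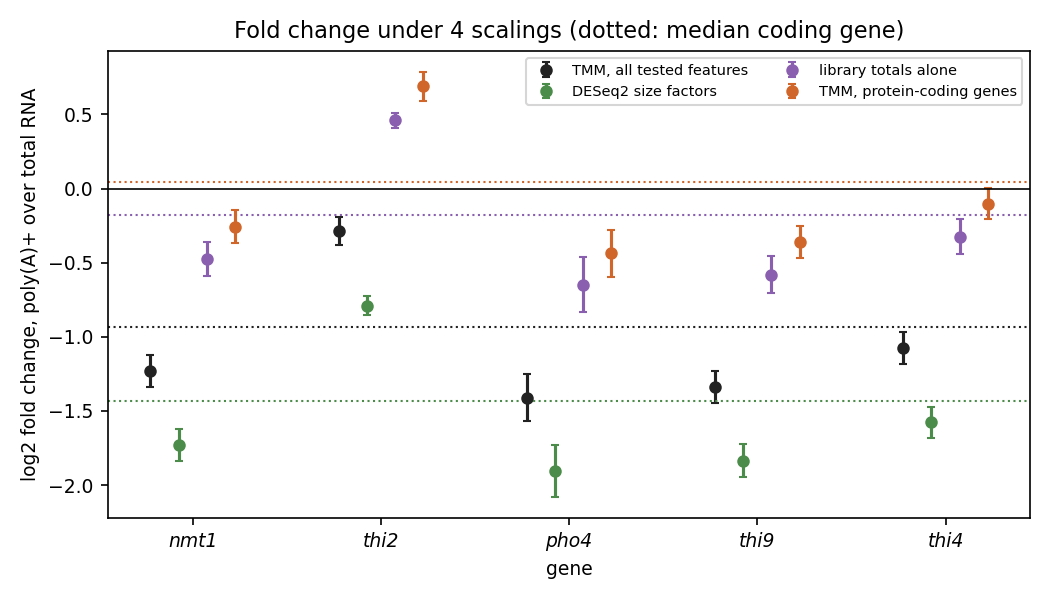
Log2 fold change (poly(A)+ over total RNA) with its standard error for each tested gene under 4 scalings, with the median coding gene under each as a dotted line of the same colour. *thi2* lies above the dotted line under each scaling but changes sign, from -0.79 with DESeq2 size factors to 0.69 with TMM factors from coding genes, while the other genes lie below their dotted lines.

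Ratios between genes within a library are free of this scaling, but not of the limit from opposite-strand reads given below. Per nucleotide, the counts of *thi2* were 0.524 and 0.566 times those of *nmt1* in total RNA, then 1.19 and 0.924 times in poly(A)+ RNA. The ratio was thus higher in both poly(A)+ libraries. Its mean log2 value was -0.88 ± 0.08 in total RNA and 0.07 ± 0.26 in poly(A)+ RNA (SD, n = 2 each), and they differed by 0.94 (p = 0.333 in a two-sided exact permutation test, which cannot go lower with 2 libraries against 2). This pair was chosen after the values had been seen. Those of *thi9* were 2.02 and 1.82 times those of *thi4* in total RNA, then 1.54 and 1.65 times in poly(A)+ RNA, which did not overlap either (two-sided exact permutation test, p = 0.333). *cdb4*, which lies within *thi4* on the other strand, had 4553 and 4626 counts in total RNA. The part of its reads in the poly(A)+ counts of *thi4* was not tested. Other ratios did overlap, namely *pho4* to *thi9*, with 1.68 and 1.60 against 1.42 and 1.68 (two-sided exact permutation test, p = 1.0), and *nmt1* to *thi4*, with 54.8 and 45.0 against 42.8 and 46.3 (two-sided exact permutation test, p = 0.667).

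The poly(A)+ values have a limit that lies in the annotation of these loci. On the opposite strand, SPNCRNA.1234 (III:1837499-1840092) covers all of *nmt1*. This non-coding RNA received 1862 and 1497 counts from total RNA, against 210017 and 320154 from poly(A)+ RNA, where *nmt1* received 208335 and 315338. Its counts per nucleotide were 0.00216 and 0.00203 times those of *nmt1* in total RNA, then 0.486 and 0.489 times in poly(A)+ RNA, over an RNA of 2594 nucleotides that extends past both ends of the gene. SPNCRNA.6357, which covers 76.0% of *thi2*, received 524 and 343 counts from total RNA and 215113 and 248764 from poly(A)+ RNA, which makes 0.00244 and 0.00173 times the counts per nucleotide of *thi2* and then 0.882 and 0.867 times. In both pairs the strands were far apart in total RNA and held similar counts in poly(A)+ RNA.

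A like gap between the fractions was seen where a non-coding RNA lies inside *thi9* or *thi4*. For SPNCRNA.2655, which covers 85.9% of *thi9*, the ratio to *thi9* was 0.00412 and 0.00499 in total RNA, then 1.11 and 1.08 in poly(A)+ RNA. SPNCRNA.2705, within *thi4*, stood at 0.0143 and 0.0111 times that gene per nucleotide and then at 1.51 and 1.54 times. *cdb4*, a protein-coding gene that lies entirely within *thi4* on the other strand and covers 36.9% of it, differed less between the fractions, with 0.614 and 0.598 times in total RNA, then 0.809 and 0.777 times in poly(A)+ RNA. SPNCRNA.2704 and SPNCRNA.743, which overlap 15.5% of *thi4* and 6.51% of *thi9*, had 912 and 964 and then 3612 and 4821 counts, and 73 and 77 and then 5160 and 8259 counts. *pho4* was the least covered, with SPNCRNA.1358 over 6.69% of it, and this RNA received 84 and 91 counts from total RNA and 3523 and 4803 from poly(A)+ RNA. Over *fub2*, SPNCRNA.1695 had 15, 9, 4 and 21 counts in the same order of libraries. The strand setting used for counting is not given in the sources used here. In poly(A)+ RNA, reads of a gene and of its opposite-strand partner cannot be told apart, and the part of such reads in the poly(A)+ values was not tested.

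**Figure D4:**
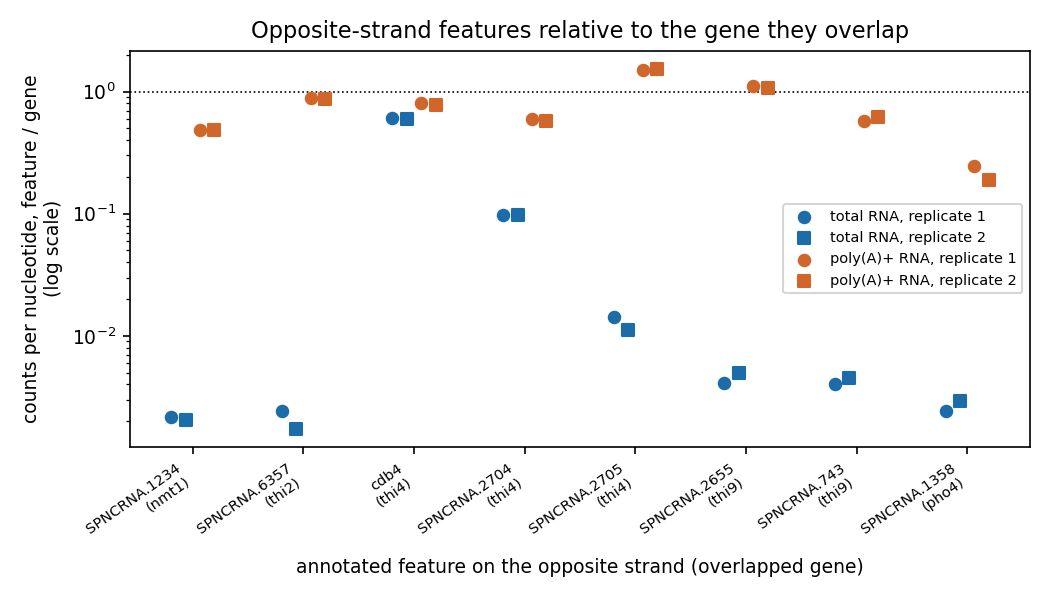
Counts per nucleotide of each feature annotated on the opposite strand, relative to those of the gene it overlaps (named in parentheses), on a log scale for the 4 libraries, leaving out *fub2* and its partner for their few counts, with a dotted line at equal counts per nucleotide. The non-coding RNAs drawn lie below 0.1 in total RNA and between 0.189 and 1.54 in poly(A)+ RNA, while *cdb4* lies between 0.598 and 0.809 in all libraries.

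Other genes of thiamine metabolism were given as lists chosen by annotation. The regulators *thi1* and *thi5*, transcription factors that activate the pathway, and *tnr3*, the diphosphokinase that makes thiamine diphosphate and acts as a negative regulator, had levels of 59.9 ± 5.17, 70.8 ± 1.75 and 67.9 ± 0.160 RPKM in total RNA, then 19.3 ± 0.874, 22.8 ± 3.79 and 14.0 ± 0.746 RPKM in poly(A)+ RNA (SD, n = 2). All 3 were lower in poly(A)+ RNA, a call made for 72.4% of coding genes, with log2 fold changes of -1.63, -1.64 and -2.28 and a median of -1.64, against -0.93 for coding genes. The 3 were lower under each of the 4 scalings. Of coding genes, 72.4% were lower with TMM factors from all features and 84.7% with DESeq2 size factors. With library totals alone 33.5% were lower, and with TMM factors from coding genes 24.4%.

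Of 7 further genes annotated with thiamine products, *pho4* among them, 6 were lower and none was higher in poly(A)+ RNA, beside 72.4% lower and 7.89% higher among coding genes. Their median log2 fold change was -0.90, close to the -0.93 of coding genes. Of the 7, 4 lay above the median coding gene, as *thi2* did. *thi20* (-1.24) and *thi201* (-0.89), which encode phosphomethylpyrimidine kinases that phosphorylate the pyrimidine precursor, were lower, as were the carriers SPCC794.03 (-1.24) and SPBC1604.04 (-0.90), annotated as transporters of thiamine and of thiamine pyrophosphate. Relative to the median coding gene, *thi20* and SPCC794.03 lay at -0.31, and *thi201* and SPBC1604.04 at 0.04. SPCC18B5.05c, a further phosphomethylpyrimidine kinase, was lower by a small margin (-0.31, adjusted p = 0.0487, edgeR quasi-likelihood test). It nevertheless lay 0.62 above the median coding gene and above 78.9% of the coding log2 fold changes. SPBC530.07c, of the TENA/THI family, had a log2 fold change of 0.02 (adjusted p = 0.871, same edgeR test), or 0.95 relative to the median coding gene. With library totals alone, 2 of the 7 were higher and 3 lower, beside 18.2% and 33.5% of coding genes. With TMM factors from coding genes, 2 were higher and 1 lower, beside 26.5% and 24.4%.

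Of 9 genes for enzymes that use thiamine diphosphate, 8 were tested and 6 were lower in poly(A)+ RNA, none being higher, beside 72.4% and 7.89% of coding genes. Their median was -1.58 on the log2 scale, where coding genes had -0.93. *pdc101*, a pyruvate decarboxylase of ethanol fermentation, had both the lowest log2 fold change (-2.19) and the highest level, with 6876 ± 114 RPKM in total RNA and 1512 ± 98.8 RPKM in poly(A)+ RNA (SD, n = 2). In total RNA it ranked 7 and 6, where *thi2* ranked 4 and 5. *pdc202*, another pyruvate decarboxylase gene, had the highest log2 fold change (0.15, adjusted p = 0.606, edgeR's quasi-likelihood test). With library totals alone, 1 of the 8 was higher and 6 lower, beside 18.2% and 33.5% of coding genes. With TMM factors from coding genes, 2 were higher and 6 lower, beside 26.5% and 24.4%. *pho1*, the paralog of *pho4*, received 138439 and 135119 counts from total RNA and 55492 and 77456 from poly(A)+ RNA, and it stood at -1.71 on the log2 scale (standard error 0.09, edgeR quasi-likelihood adjusted p = 1.3e-05). That is -0.78 relative to the median coding gene, with 72.4% of coding genes called lower. With TMM factors from coding genes, *pho1* stood at -0.73, with 24.4% of coding genes called lower. Its counts per nucleotide were 4.36 and 4.74 times those of *pho4* in total RNA, then 4.21 and 3.31 times in poly(A)+ RNA.

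Across the 4 libraries, the pattern most like that of each gene was sought among coding genes by the mean absolute difference in log2(RPKM + 1). For *nmt1* it was *thi2* (0.53) and then *tdh1* (0.60). *thi2* was closer to SPAC27E2.11c (0.24), a protein specific to the genus, and *gpm1* (0.27), a phosphoglycerate mutase. The lower genes had closer neighbours, which were *zuo1* (0.05) and *his2* (0.08) for *thi4*, *his1* (0.05) and *acl2* (0.06) for *thi9*, and *hmt2* (0.13) and *obr1* (0.16) for *pho4*. For *fub2* they were SPBC1348.04 (0.08) and SPAC1687.23c (0.08), 2 genes of similarly low RPKM.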

How the data were processed

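Per the labels and the methods of the study, reads were trimmed (Cutadapt 1.15 or fastp 0.23.1, as the submitters' processing notes name them), aligned with STAR 2.6.1d and counted with featureCounts of Subread 2.0.6. The authors deposited raw counts per feature, without normalization. The header has more names than fields, so that fields were read by position. The genome build is not given in the sources used here. Features were matched by identifier to the RefSeq annotation of ASM294v3 (12602 of 12684; 12594 with the same start and 12601 with the same end).

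Testing used edgeR 4.0.16, run in R 4.3.3 with the settings TMM and filterByExpr (glmQLFit and glmQLFTest, adjusted p under 0.05), and standard errors were derived from the F statistic. RPKM values use the TMM library sizes. Ratios and permutation tests used Python 3.11.15 and scipy 1.17.1. The test was tried on simulated data. Alternatives were DESeq2 1.42.0, its size factors in edgeR, library totals, TMM factors from coding genes, no filter beyond 1 count, a filter at a mean of 50 counts, replicate number as a block and each library left out. Ranks were repeated on counts without division by length and among genes without an opposite-strand overlap. Named genes are the listed identifiers, *pho4*, the lists of regulators and thiamine products, *pho1*, the extremes of the list of thiamine diphosphate enzymes, the 2 coding genes most like each member and every feature overlapping a member. The members and lists were chosen with earlier results of these data known. Protein sequences were not used here.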

Additional observations from a re-analysis of the deposited data

How the results depend on the processing

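The median log2 fold change over all features moved from 0.84 to 0.34 with DESeq2 size factors in edgeR, 1.58 with library totals and 1.81 with TMM factors from coding genes, and that over coding genes from -0.93 to -1.43, -0.18 and 0.04. With library totals, 1907 features were lower instead of 3992, and 1 listed gene, *thi2*, was higher (0.46). With TMM factors from coding genes, 1430 features were lower, 1 listed gene (*thi9*) was lower instead of 4, and 1 (*thi2*) was higher (0.69). Of 55 log2 fold changes under alternatives for *nmt1*, *thi2*, *thi4*, *thi9* and *pho4*, 48 kept direction and call, 5 lost the call and 2 changed sign. Without single libraries, 8610 to 9943 features differed, 3319 to 4296 of them lower, and 3 to 4 listed genes were lower. A lone library was then assumed to vary like the other fraction, although the chi-square per degree of freedom between replicates reached 114 for poly(A)+ and 8.60 for total RNA. With the replicate block, 9418 features differed, 3900 of them lower, and 4 listed genes were lower. Deviations of same-numbered libraries showed no correlation (r = -0.02 across 11234 features). With 2 libraries per fraction and unlike spread in the fractions, this cannot settle whether such libraries share a culture. No listed gene changed its call under the block.

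Ranks, as means over the 2 libraries, depended on the division by length. On counts alone, *thi2* ranked 9 in total RNA, *thi4* 240.5 in total and 258 in poly(A)+ RNA, *thi9* 158.5 and 233, and *pho4* 118 in total RNA. Among the 516 coding genes without an opposite-strand overlap, plus the gene ranked, *thi2* ranked 3 in total RNA, *thi4* 99 and 105.5, *thi9* 74 and 86, and *pho4* 57.5 and 69. *fub2*, which the filter removed, stood without it at 0.87 on the log2 scale (standard error 0.90, edgeR quasi-likelihood adjusted p = 0.403). It moved to 0.24 without total replicate 1, 1.87 without total replicate 2 and 1.38 without poly(A)+ replicate 1, and its 2 to 18 counts per library limit any statement on it.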

Other observations

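*gut2*, a mitochondrial glycerol-3-phosphate dehydrogenase gene on the opposite strand, ends 929 nucleotides beyond *nmt1*. It received 2949 and 2057 counts from total RNA and 18770 and 2246 from poly(A)+ RNA. SPNCRNA.1235, which overlaps it on the strand of *nmt1*, received 915 and 842 counts from total RNA and 19059 and 2617 from poly(A)+ RNA. Both were thus high in poly(A)+ replicate 1 alone, whereas *nmt1*, 122 nucleotides from SPNCRNA.1235, was not. As these features overlap on opposite strands, their poly(A)+ reads cannot be told apart, and they are not independent observations. *gut2* was named after its values had been seen. Of 5008 coding genes, 44 differed by more than 4-fold between the poly(A)+ replicates and 11 between the total RNA replicates. The cause was not tested.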
